A study of Mus musculus with 12 samples.

Results

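The RNA held by the m6A reader YTHDF2 was compared with the RNA of the same lysates in tumor-infiltrating myeloid cells taken 3 days after local irradiation (IR). The comparison used 6 of the 12 libraries of the series, 3 made from RNA recovered with an anti-YTHDF2 antibody (YTHDF2 IP) and 3 made from the lysate before recovery (Input). Genes were kept when they had at least 10 counts in at least 3 of the 6 libraries and averaged at least 1 CPM (a gene's counts scaled by the library total, while levels printed below are also scaled by TMM) over the Inputs. This left 13445 genes of 54446 identifiers. The count filter alone was passed by 18650 genes, which were all tested, so the 5205 genes below the Input limit entered the test but not the counts given here. Just inside that limit, from 1 to 1.1 CPM, lay 188 genes with a median of 0.49 for the fold change (IP over Input, log2 scale), and just outside it, from 0.9 to 1 CPM, lay 224 genes with a median of 0.44.

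The mice were of the WT genotype, which the study's methods give as Ythdf2 f/f without a Cre, male and female, and 8 to 10 weeks old. They carried subcutaneous tumors of MC38, a mouse colon carcinoma line, and received 1 tumor-localized dose of 20 Gy. CD11b+ cells, a gate that takes monocytes, macrophages, neutrophils and some dendritic cells, were selected from the tumors of 5 pooled mice for each of 3 lysates, which the methods call technical replicates, so the p-values measure the spread between these lysates. A share of 0.1 of each lysate was kept as Input. In the records of the samples the antibody is Abcam's and the RNA polyA, while the methods name an Aviva antibody and total RNA. No IP with a control antibody and no unirradiated library was used here, so the comparison gives the share of each transcript in the IP against its share in the lysate, and says nothing of what irradiation changed.

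YTHDF2 binds N6-methyladenosine (m6A) in the cytoplasm through its YTH domain and recruits the CCR4-NOT deadenylase, which shortens the poly(A) tail and sends the transcript to decay. The methylation is laid down during transcription by the METTL3 and METTL14 complex in a short consensus whose core is GGAC or a close variant, and it is densest in long internal exons, around stop codons and in 3′ untranslated regions. Many short housekeeping transcripts carry little of it, and transcripts of regulators that turn over quickly often carry more.

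The sequences below belong to genes at both ends of the values that follow and show what copies of GGAC look like in a long and in a short coding sequence. The first group holds, for 5 transcripts that were higher in the IP, the stretch of 60 coding bases with the most copies of GGAC, which is in capitals. The positions are those of the mouse build mm10, and the transcripts are those of the GENCODE M21 annotation.

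Plcl2, chr17:50509802-50509861, plus strand: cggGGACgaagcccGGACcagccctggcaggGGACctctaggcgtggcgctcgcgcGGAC
Rbm15, chr3:107331173-107331232, minus strand: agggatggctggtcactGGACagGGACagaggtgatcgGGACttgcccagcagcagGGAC
Tnrc6c, chr11:117739867-117739926, plus strand: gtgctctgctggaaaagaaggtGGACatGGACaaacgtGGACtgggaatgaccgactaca
Plec, chr15:76192288-76192347, minus strand: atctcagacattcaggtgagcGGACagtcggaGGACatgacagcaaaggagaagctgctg
Purb, chr11:6475704-6475763, minus strand: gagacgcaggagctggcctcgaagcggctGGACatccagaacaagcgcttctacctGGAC

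The second group holds 3 whole coding sequences of transcripts that were lower in the IP, joined over their exons, and the noncoding RNA Bc1. Gng5 and Rpl39 have no GGAC in the coding sequence, Atp5e has 1, and Bc1 has none over its 168 bases.

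Gng5, chr3:146499940-146503385, plus strand: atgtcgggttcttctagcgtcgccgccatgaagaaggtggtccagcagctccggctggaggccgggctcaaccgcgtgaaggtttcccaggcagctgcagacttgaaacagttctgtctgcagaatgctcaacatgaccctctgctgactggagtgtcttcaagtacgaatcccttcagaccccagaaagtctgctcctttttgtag
Rpl39, chrX:37082701-37085127, minus strand: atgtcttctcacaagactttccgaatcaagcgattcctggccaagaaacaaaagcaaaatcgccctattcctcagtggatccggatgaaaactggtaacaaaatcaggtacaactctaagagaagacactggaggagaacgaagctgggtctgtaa
Atp5e, chr2:174462503-174463996, minus strand: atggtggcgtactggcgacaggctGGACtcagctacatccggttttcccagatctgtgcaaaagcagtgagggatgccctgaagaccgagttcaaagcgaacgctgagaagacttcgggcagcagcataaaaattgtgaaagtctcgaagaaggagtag
Bc1, chr7:144914470-144914637, plus strand: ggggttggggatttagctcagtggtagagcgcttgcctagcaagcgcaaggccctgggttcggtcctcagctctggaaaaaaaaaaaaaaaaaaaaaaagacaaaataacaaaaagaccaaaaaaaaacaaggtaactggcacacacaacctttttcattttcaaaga

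GGAC was searched on the RNA strand only, and no other motif was searched. The 4 letters are common. They stood in 24.97% of all windows of 60 coding bases in the 11521 nuclear protein-coding genes kept, a window with at least 2 copies was found in 70.9% of the coding sequences, one with at least 3 in 19.7% and one with at least 4 in 2.27%. Of the 51 coding sequences of at most 210 bases, 43.1% held no copy. Over the whole transcript the higher genes Tnrc6c, Rbm15, Plcl2, Plec and Purb had 6.89, 6.22, 5.26, 4.98 and 1.92 copies per kb. Among the lower genes Atp5e had 4.75, Rpl39 3.27, Gng5 0.41 and Bc1 none. The shown groups overlapped per length, since Purb lay below Rpl39 and Atp5e. Of the lower genes described below, Ndufb6 has 2 copies in its coding sequence and Sec61g has 1. A match is a description of letters, and methylation was not measured in these files.

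Irradiated myeloid cells yielded an IP that was unlike its Input over most of the transcriptome. Of the 13445 genes, 3520 (26.2%) were higher in the IP, 5550 (41.3%) were lower, and 4375 did not pass the test at an adjusted p under 0.05. Over all 18650 genes tested the shares were 32.1% higher and 30.5% lower, since 47.5% of the genes under the Input limit were higher in the IP and 2.52% lower. A gene under that limit can pass the count filter through the IPs alone, so this last split is partly set by the filter. At least 2-fold differences were called for 1619 higher and 2959 lower genes, and at least 4-fold differences for 227 and 759. The median log2 fold change was -0.23 (5th to 95th percentile -2.07 to 1.51). All IP libraries stood above all Inputs for 3805 genes (28.3%) and below them for 6144 (45.7%).

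The split depends on the scaling of the libraries. When the scaling was computed on the 13445 genes alone, 4567 were higher and 4477 lower, and the median moved up by 0.23. Scaling by library size alone moved it up by 0.15. Values given here are therefore read against the median of -0.23, and a list or class is described by where it stands from that median.

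**Figure D1:**
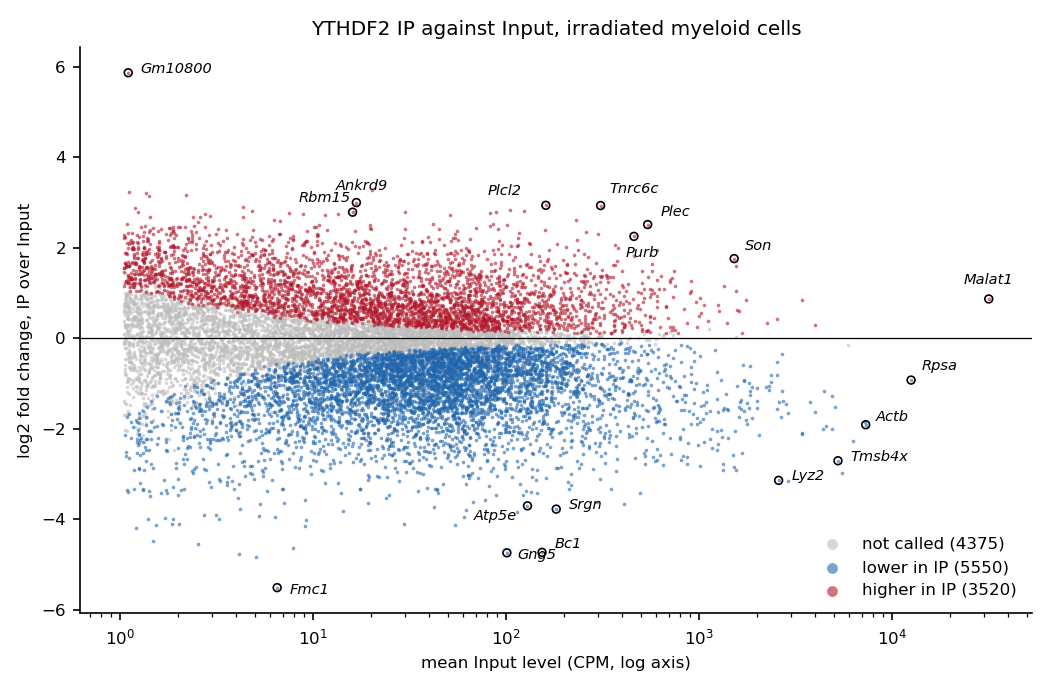
Mean Input level (x axis, CPM on a log scale) against log2 of the IP to Input fold (y axis) for the 13445 genes. Red points were higher in the IP (3520), blue points lower (5550) and grey points not called (4375), and circles mark genes described in the text, among them Plec at 2.52 and Gng5 at -4.74.

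The 6 libraries were deep. Between 37940948 and 42382532 reads were counted on genes in the Inputs (median 41027348) and between 27852948 and 30244160 in the IPs (median 29243633). A level of 3 counts, taken as the limit of detection, was worth 0.0743 to 0.104 CPM, and it covers counting error only. Reads on no annotated gene made up 24.7% ± 0.065 (SD, n = 3) of the uniquely aligned reads in the Inputs and 51.4% ± 2.43 (SD, n = 3) in the IPs. The groups did not overlap (exact permutation test, two-sided p = 0.1, the smallest that 3 against 3 can give), and IP replicate 1 had the highest share, 54.1%. Replicates differed by more than counting noise, with a variance-to-mean ratio of their counts of 4.21 to 6.22 among Inputs and 18.7 to 23.8 among IPs. Ythdf2 itself was at 51.5 CPM in the Input and 72.9 CPM in the IP (log2 fold change 0.50 ± 0.12 SE, adjusted p = 0.0043). Markers of CD11b+ cells carried the Inputs: the 25 macrophage and monocyte genes summed to 6442 to 6518 CPM, the 19 neutrophil genes to 16663 to 17168 CPM and the 15 dendritic cell genes to 2998 to 3017 CPM. The 16 lymphocyte markers summed to 30.1 to 32.2 CPM with 3 at 0 in every Input, the 10 epithelial and tumor markers to 98.0 to 104 CPM with 2 at 0, and the 12 fibroblast and endothelial markers to 104 to 112 CPM with 1 at 0. In the IPs the last 3 sums were 42.5 to 47.3, 51.6 to 69.7 and 119 to 138 CPM, and the part of such cells in the results was not tested. Fewer cells of a type and less RNA per cell cannot be told apart in such sums.

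Plec and Purb were among the genes higher in the IP. Plec encodes plectin, a very large linker between intermediate filaments, actin and adhesion sites. It stood at 550, 532 and 547 CPM in the Inputs and at 3181, 2974 and 3173 CPM in the IPs. The groups are far apart, with a fold change of 5.72 (log2 2.52 ± 0.037 SE, adjusted p = 3.82e-12, edgeR's quasi-likelihood test). The gene lies on chromosome 15 from 76170974 to 76232574, its transcript has 15455 bases in 33 exons with 77 copies of GGAC, and 205 exon bases are shared with Parp10 on the same strand. Purb encodes a single-stranded DNA and RNA binding protein that represses smooth muscle genes, from 1 exon of 8319 bases on chromosome 11 (6467599 to 6475917). Its level was 461, 467 and 455 CPM in the Inputs against 2240, 2147 and 2218 CPM in the IPs, a fold change of 4.77 (log2 2.26 ± 0.033 SE, adjusted p = 4.16e-12). It shares 53 exon bases on its own strand and 285 on the other strand with Gm11973 and Gm22123, where reads may not be assigned to 1 gene.

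Among protein-coding genes that share no exon base with another gene, the greatest fold changes belonged to a mixed set. Tnrc6c, a GW182 protein that ties Argonaute to CCR4-NOT in silencing by microRNAs, was at 317, 301 and 312 CPM in the Inputs and 2513, 2170 and 2439 CPM in the IPs (log2 2.94 ± 0.055 SE, adjusted p = 1.64e-11). For Plcl2, an inactive relative of phospholipase C, the libraries gave 161, 153 and 170 CPM against 1160, 1199 and 1361 CPM (log2 2.94 ± 0.066 SE, adjusted p = 4.41e-11). In both, the lowest IP library was several times the highest Input. Rbm15, an adaptor of the m6A writer complex, had 16.2, 17.8 and 14.3 CPM in the Inputs and 108, 110 and 116 CPM in the IPs (log2 2.79 ± 0.094 SE, adjusted p = 8.57e-10). Rab7b, a Rab GTPase of late endosomes, had 111, 103 and 102 CPM against 703, 737 and 826 CPM (log2 2.84 ± 0.066 SE, adjusted p = 6.31e-11). The groups did not overlap in either gene. Ankrd9, an ankyrin repeat protein, was 8.02-fold higher in the IP, from 16.8 CPM in the Input. The others of this set had low Input levels. Tnfsf15, the TNF family ligand TL1A, was 9.05-fold higher from 2.22 CPM. Megf11, an EGF-like repeat receptor, was 9.41-fold higher from 1.12 CPM, near the Input limit of 1 CPM. The adenylate cyclase Adcy9 and the zinc finger gene Zfp599 were 7.45-fold and 7.07-fold higher, from 4.36 and 4.87 CPM. Gm10800, a predicted gene on chromosome 2 with no known role, had the greatest value of all (1.34, 0.993 and 0.991 CPM against 85.7, 62.2 and 57.3 CPM). It lies in a stretch of that chromosome known for reads from many repeat copies, and what share of its counts these make up was not tested.

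Genes of small proteins stood at the other end. Gng5, a G protein gamma subunit, was at 96.0, 104 and 104 CPM in the Inputs and at 2.83, 3.85 and 4.54 CPM in the IPs, 26.8-fold lower (log2 -4.74 ± 0.14 SE, adjusted p = 3.99e-10). Atp5e, the epsilon subunit of ATP synthase, had 131, 129 and 129 CPM against 9.83, 9.65 and 10.2 CPM (log2 -3.70 ± 0.076 SE, adjusted p = 2.92e-11). Srgn, the core protein of the granule proteoglycan serglycin, had 179, 185 and 183 CPM against 13.3, 13.0 and 13.4 CPM (log2 -3.78 ± 0.066 SE, adjusted p = 1.19e-11). These transcripts were still well above the limit of detection in each IP, so they were recovered at a small share of their Input level and were not absent. Sec61g, the gamma subunit of the ER protein channel, was 15.4-fold lower in the IP. The microsomal glutathione transferase Mgst3 was 17.9-fold lower, and the secreted protein Wfdc17 was 17.6-fold lower. Fmc1, a factor for assembly of ATP synthase, had the lowest value of the protein-coding genes, with 6.84, 5.57 and 7.24 CPM against 0.193, 0.0313 and 0.0346 CPM, where IP replicates 2 and 3 were below the limit of detection. Gm9733, 2010005H15Rik and Rbbp9, a serine hydrolase, completed the 10 lowest under the naming rule at 15.5-fold, 14.1-fold and 12.6-fold lower. The rule asks for an average of 100 counts and no shared exon bases, and genes outside it, such as Ndufb6 and Sgcb (-4.76), were as low. Under the same rule, the spliced transcripts of the 10 highest genes ran from 660 bases (Gm10800) to 8847 bases (Tnrc6c), and those of the 10 lowest from 421 bases (Atp5e) to 2419 bases (Gng5).

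**Figure D2:**
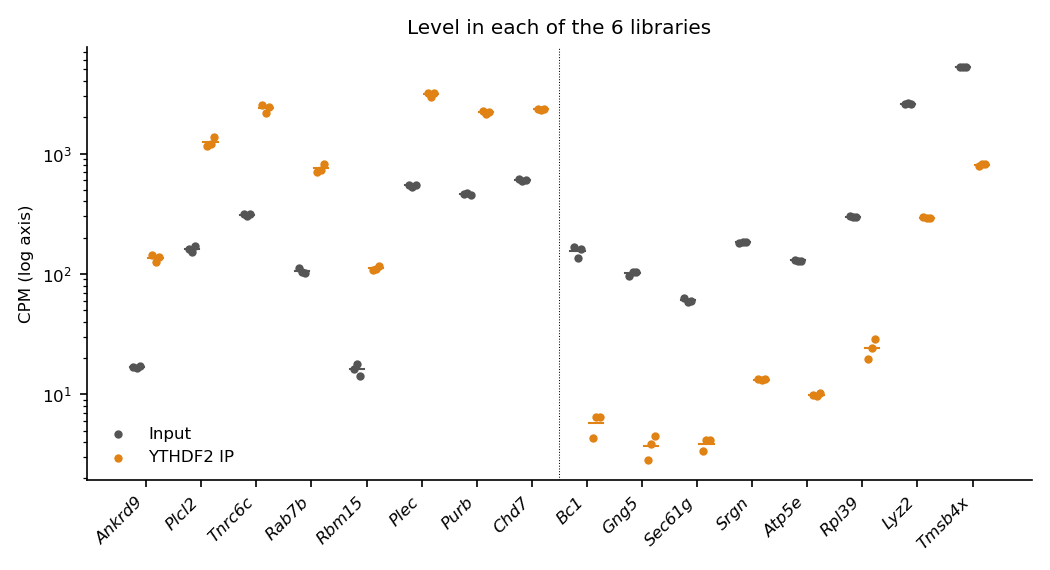
CPM on a log scale (y axis) of 16 genes in each Input (grey points) and each YTHDF2 IP (orange points), with horizontal lines at the means of 3 libraries. Left of the dotted line every IP library lies above every Input, as for Plec (2974 to 3181 against 532 to 550 CPM), and right of it every IP library lies below, as for Srgn (13.0 to 13.4 against 179 to 185 CPM).

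The translation machinery was mostly lower in the IP. Of 83 cytosolic ribosomal protein genes, 81 were lower in the IP and none was higher, with a median log2 fold change of -1.59 against -0.23 over all genes kept. Rpl39 was the lowest, at 302, 297 and 294 CPM in the Inputs and 19.6, 24.3 and 28.6 CPM in the IPs (log2 -3.62 ± 0.11 SE). Rpl13a stood nearest to no difference among those called (-0.30), and Rpl24 and Rps10 were not called. Rpsa, among the 5 genes with the most Input counts, went from 12814, 12442 and 12424 CPM to 6613, 6440 and 6818 CPM (-0.92). Many of these genes have processed pseudogenes of nearly the same sequence, and how the counting divided such reads was not tested. Mitochondrial ribosomal proteins were lower in 68 of 77 (median -1.17), with Mrps14 at -3.43, and higher in 2, Mrpl43 (0.52) and Mrps7 (0.71). Among 64 translation initiation and elongation factors 42 were lower and 10 higher (median -0.71). Eif1ax, which scans for the start codon, was lowest (-2.77), and Eif2ak2, the double-stranded RNA kinase PKR that shuts down translation, was highest (1.48). The factors Eif3a (0.63), Eif5b (0.81) and Eif5 (0.70) were also higher. Of 20 cytosolic aminoacyl-tRNA synthetases 14 were lower and 3 higher, of which Eprs, the bifunctional glutamyl-prolyl enzyme, was at 0.85.

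Respiration genes lay lowest of the metabolic lists, from both genomes. Of 77 nuclear genes for subunits of the respiratory chain and ATP synthase, 75 were lower in the IP, 1 was higher and 1 was not called, and the median was -1.99. Ndufb6 of complex I was lowest (-4.11), although its 3 IP libraries spread from 0.354 to 3.01 CPM against 25.6 to 32.9 CPM in the Inputs and 257 of its exon bases are shared with Smim27 on the other strand. Uqcrb of complex III (-3.39) and Cox7b of complex IV (-3.33) were close to it. Cox7a2l, which joins complexes III and IV into supercomplexes, was the single one higher, at 304, 313 and 303 CPM against 787, 830 and 760 CPM (1.37 ± 0.044 SE). All 12 mitochondrially encoded protein genes kept were lower (median -2.12), from mt-Nd5 at -0.26 to mt-Atp6 at -3.84, and so was the large mitochondrial ribosomal RNA mt-Rnr2 (-2.26). All 16 enzymes of the tricarboxylic acid cycle were lower (median -1.20), from Dlst at -0.45 to Idh3a at -2.49. In glycolysis 14 of 17 were lower, led by Gapdh (-2.54) and Pgam1 (-2.48). The 2 that were higher stand at the entry of the pathway, the glucose transporter Slc2a1 (0.42) and Hk2, the inducible hexokinase (0.74).

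Protein folding, turnover and secretion followed the same side. All 13 CCT chaperonin and prefoldin genes were lower (median -1.17), and 34 of 37 proteasome subunits were lower (median -1.22), with Psmd7 the 1 that was higher (0.64). All 21 genes of the ER translocon, signal peptidase and oligosaccharyltransferase were lower (median -1.47). The channel subunits differed among themselves, with Sec61g at -3.94, Sec61b at -2.89 and the large pore subunit Sec61a1 at -0.53. Of 18 v-ATPase subunits 16 were lower (median -1.18), and of 29 lysosomal hydrolases 25 were lower (median -0.99). Asah1, acid ceramidase, was the lowest hydrolase (-3.01) and Neu1, lysosomal sialidase, the highest (1.01). Of 49 Rab GTPases 25 were lower and 6 higher (median -0.39), so that Rab7 and its relative Rab7b, which are 2 separate genes, lay at -2.09 and 2.84. The ubiquitin system lay nearer to all genes kept, of which 41.3% were lower and 26.2% higher. Of 42 ubiquitin-specific proteases 21 were lower (50%) and 11 higher (26.2%), with a median of -0.19. Of 70 Kelch-like and F-box genes 22 were lower (31.4%) and 23 higher (32.9%), with a median of -0.04. The sign of both medians turns with the scaling. Usp34 (2.31), a deubiquitinase of WNT signalling that shares 2137 exon bases with the antisense gene Ahsa2, and Fbxw7 (2.31), the F-box protein that marks MYC, cyclin E and NOTCH for decay, were the highest.

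Chromatin remodelers and histone methylation enzymes were mostly higher. Of 36 ATP-dependent remodelers and large cofactors 29 were higher in the IP and 2 lower, with a median log2 fold change of 1.08. Chd7, a CHD remodeler, had 616, 597 and 604 CPM in the Inputs and 2354, 2289 and 2340 CPM in the IPs (1.94 ± 0.032 SE, adjusted p = 7.35e-12). The acetyltransferase Crebbp (1.81), Arid1b (1.75) and Arid1a (1.71) of the BAF complex were near it. The 2 lower genes, Ncoa3 (-0.24) and Baz1b (-0.19), were close to the median of all genes, and Ncoa3 lost its call in most alternatives. Of 40 histone lysine methyltransferases and demethylases 22 were higher and 10 lower (median 0.35). Kmt2d, a writer of enhancer histone methylation, had 165, 159 and 154 CPM against 826, 827 and 881 CPM (2.40 ± 0.046 SE, adjusted p = 2.03e-11), and Kmt2a and Kmt2c were at 1.75 and 1.63. Kdm3a, a demethylase that is induced by hypoxia, was lowest (-1.39). Among 298 numbered Zfp zinc finger genes 138 were higher and 35 lower (median 0.44), and 125 were not called. Zfp599 (2.82), Zfp629 (2.76), Zfp87 (2.75) and Zfp407 (2.73) were the highest and Zfp280c (-2.41) the lowest.

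Other nuclear complexes lay mostly on the low side, beside 41.3% lower and 26.2% higher over all genes kept. Of 35 spliceosomal snRNP and Sm protein genes 29 were lower and 2 higher (median -1.21), with Lsm8 at -3.06 and Snrnp48 at 1.1. Of 12 RNA polymerase II subunits 11 were lower, from Polr2i (-0.70) to Polr2j (-2.50), and Polr2a, the large catalytic subunit, was higher (0.62), while the other catalytic subunit Polr2b was at -1.84. Mediator showed 18 lower and 6 higher of 30, with the small Med28 at -2.03 and the large Med13l at 1.14. SR splicing factors gave 8 lower and 6 higher of 15. Son, a very large nuclear speckle protein, was at 1544, 1510 and 1516 CPM against 5259, 5068 and 5194 CPM (1.76 ± 0.027 SE), with 103 exon bases shared with Donson on the other strand, Srrm2 was at 1.24, and Srsf6, Srsf3 and Srsf2 were at -1.47, -1.45 and -1.21. Of 22 nucleoporins 15 were lower and 4 higher (median -0.58), although their median spliced transcript has 5697 bases. For the 42 replication-dependent histone genes, 31 were not called, 6 were lower and 5 higher, and near-identical copies make their counts uncertain.

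Cytoskeletal lists lay on both sides, beside 26.2% higher and 41.3% lower over all genes kept. Of 23 giant linkers and motors 18 were higher and 4 lower (median 0.73). After Plec came the ankyrin Ank2 (2.36), which was at 1.58 CPM in the Input, the non-muscle myosin Myh10 (1.91) and the nesprin Syne3 (1.79). Vinculin (Vcl, -0.83), filamin A (Flna, -0.39), talin (Tln1, -0.32) and spectrin (Sptan1, -0.29) were the lower ones. Actin assembly genes were lower in 25 of 27 (median -1.49). Tmsb4x, the actin-sequestering thymosin beta 4, went from 5261, 5269 and 5229 CPM in the Inputs to 783, 815 and 815 CPM in the IPs (-2.71 ± 0.029 SE, adjusted p = 4.72e-13). Actb, cytoplasmic actin, went from 7293, 7289 and 7354 CPM to 1830, 2039 and 1967 CPM (-1.91), and Coro1c was the single higher one (0.55). Kinesins gave 13 higher (41.9%) and 10 lower (32.3%) of 31 (Kif1b at 1.87, Kif2a at -1.33). Among 19 semaphorins, plexins and neuropilins 9 were higher and 4 lower, with the receptors Nrp1 at 1.87 and Nrp2 at 0.87.

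Transcripts by which myeloid cells are recognised were mostly lower in the IP, beside 41.3% lower over all genes kept. Of 19 neutrophil genes 18 were lower (median -2.0). S100a8, a subunit of the alarmin calprotectin, had 2722, 3096 and 2901 CPM in the Inputs and 324, 350 and 301 CPM in the IPs (-3.16 ± 0.062 SE, adjusted p = 2.45e-11), and the antimicrobial genes Camp (-2.65) and Lcn2 (-2.53) were near it. Padi4, the enzyme that citrullinates histones in neutrophil traps, was the 1 higher gene (0.15), and it lost its call in some alternatives. Of 22 macrophage and monocyte genes 14 were lower and 3 higher (median -0.85). Lyz2, lysozyme, had 2594, 2606 and 2566 CPM against 298, 291 and 291 CPM (-3.14 ± 0.032 SE, adjusted p = 4.58e-13), and Ly6c2, which marks inflammatory monocytes, was at -3.01. The lipopolysaccharide co-receptor Cd14 was higher (0.78). Dendritic cell genes were lower in 9 of 14, with the chemokine Ccl17 at -2.70, while Zbtb46, the transcription factor of classical dendritic cells, was higher (0.53) and lost its call without some libraries.

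Antigen presentation genes were mostly lower, beside 41.3% lower over all genes kept, and lay closer to genes of like length (below). In the class II list 8 of 9 genes were lower (median -1.28). H2-Ab1 had 1246, 1254 and 1227 CPM in the Inputs and 303, 305 and 292 CPM in the IPs (-2.05 ± 0.037 SE). Ciita, the transactivator that turns these genes on, was the 1 that was higher, at 167, 162 and 164 CPM against 244, 224 and 252 CPM (0.55 ± 0.055 SE, adjusted p = 6.31e-06). Of 15 class I genes 9 were lower, led by B2m (-3.43), the invariant light chain, and 4 were higher, among them the chaperone Canx (1.02) and the peptide transporter Tap2 (0.34). The heavy chain H2-D1 was at -1.28, whereas H2-Q6 and H2-Q4 were at 2.53 and 1.82. These heavy chain genes are close paralogs, so the counts of H2-Q6 and H2-Q4 are uncertain.

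Signalling lists were mixed. Of 25 chemokines and their receptors 17 were lower and 2 higher (median -1.10). Ccl6 (-2.57) and Ccl9 (-2.55) are ligands, and the 2 higher genes, Ccr4 (2.01) and Cxcr5 (1.84), are receptors with under 2 CPM in the Input. Of 22 Toll-like receptors and their adaptors 8 were higher and 6 lower (median 0.23). Tlr4, the lipopolysaccharide receptor, was at 1.78, Tlr13 at 1.33 and Tlr2 at 1.15, while the co-receptor Ly96 (-1.62) and the adaptor Myd88 (-1.16) were lower and the adaptors Ticam1 (1.28) and Tirap (0.82) higher. Tlr5 was highest (2.33), from 1.17 CPM in the Input. Of 51 cytokine receptors 15 were higher (29.4%) and 19 lower (37.3%), with a median of -0.14, a sign that turns with the scaling. These shares are close to the 26.2% and 41.3% over all genes kept. Il7r had 64.4, 60.8 and 64.9 CPM against 216, 247 and 272 CPM (1.95 ± 0.082 SE, adjusted p = 4.92e-09), and Il6ra and Il10ra were at 1.86 and 1.27. None of 11 JAK and STAT genes was higher, and 9 were lower (median -0.50), in a narrow range from -0.69 (Stat2) to -0.09 (Stat4, not called). Interferon-stimulated genes gave 14 lower and 2 higher of 28 (median -0.58), with Gbp3 at -1.94 and Parp14 at 1.42.

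Immediate early and stress transcription factors were higher in 14 of 24 and lower in 4 (median 0.48). Lists here are read beside 26.2% higher and 41.3% lower over all genes kept. Ier5, induced by ionizing radiation and heat, had 199, 195 and 196 CPM in the Inputs and 703, 643 and 624 CPM in the IPs (1.74 ± 0.051 SE, adjusted p = 3.09e-10). Jun (1.68), Jund (1.49), Egr2 (1.36) and Atf3 (1.27) were also higher, whereas Fos was lower (-1.13 ± 0.15 SE) and Myc was not called (-0.23). KLF factors were higher in 6 of 12 and lower in 1. Klf13 had 253, 260 and 264 CPM against 1272, 1356 and 1316 CPM (2.34 ± 0.040 SE, adjusted p = 1.01e-11), followed by Klf9 (1.75), Klf7 (1.59) and Klf2 (1.43). Among 29 SOCS, DUSP and Sprouty feedback inhibitors 10 were higher (34.5%) and 7 lower (24.1%). Spry2 was at 1.85 and Socs7 at 1.35 against Dusp6 at -1.0 and Dusp1 at -0.95. NF-kB proteins and inhibitors gave 12 higher (40%) and 12 lower (40%) of 30 (median -0.03, sign turning with the scaling). That list includes inhibitors the study selected with these samples and so is no independent evidence of direction. Rela, a subunit that carries a transactivation domain, was lower (-0.78), and Metrnl was highest (1.88).

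Lists of DNA damage, survival and growth are read against 26.2% higher and 41.3% lower over all genes kept. H2afx, whose product is the histone variant phosphorylated at DNA breaks, had 105, 98.8 and 99.5 CPM in the Inputs and 580, 547 and 586 CPM in the IPs (2.50 ± 0.049 SE, adjusted p = 2.45e-11). It has 1 exon and shares 141 bases with Gm44335 on the other strand. Of 34 genes of DNA repair and damage signalling 9 were higher (26.5%) and 11 lower (32.4%), with a median of -0.25, close to all genes, and with the checkpoint kinase Chek1 lowest (-1.67). Of 25 targets of p53 15 were lower and 6 higher (median -0.52), with the cell cycle inhibitor Cdkn1a at -1.47 and Perp at -1.65. In the BCL2 family 9 of 15 were lower and 4 higher. Bcl2, the antiapoptotic founder, was at 2.12 (33.8, 32.9 and 31.4 CPM against 131, 144 and 152 CPM) with 558 bases shared with an antisense gene, and the antiapoptotic Bcl2l1 was at 0.66. The proapoptotic genes lay on both sides, with Bad (-1.65) and Pmaip1 (-1.23) lower and Bid (0.64) and Bbc3 (0.42) higher. The antiapoptotic Bcl2l2 was not called, nor was Bmf, and the other lower genes of the family are not named here. Cell cycle and replication genes were lower in 24 of 36 (median -0.69), from Pcna at -2.66 to Ccnd2, cyclin D2, at 0.98. In the mTORC1 and autophagy list 15 of 29 were lower and 5 higher. The small ATG8 family genes Gabarapl2 (-2.45), Gabarapl1 (-1.92) and Gabarap (-1.90) were among the lowest, and the large kinase Mtor (0.70) and the scaffold Rb1cc1 (0.79) were higher.

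Genes of m6A and of mRNA decay were themselves on both sides, beside 26.2% higher and 41.3% lower over all genes kept. Of 18 m6A writers, erasers and readers 8 were higher (44.4%) and 4 lower (22.2%), with a median of 0.10. Beside Rbm15, its paralog Rbm15b was at 2.14, and the writer component Zc3h13 (0.53), the eraser Fto (0.60) and the nuclear reader Ythdc1 (0.60) were higher. Mettl14 (-1.32) and Wtap (-0.82) of the writer complex and Hnrnpa2b1 (-1.60) were lower, and the catalytic Mettl3 was not called (-0.28). In the list of CCR4-NOT, PAN and decapping genes 15 of 27 were lower (55.6%) and 6 higher (22.2%). Their median of -0.35 was near the -0.23 of all genes kept. Cnot2 was at -1.54, Cnot7 at -1.26 and Ddx6, a helicase of P-bodies, at 1.33. Of 9 genes in the Argonaute and TNRC6 list 6 were higher (66.7%) and 1 lower (11.1%), the highest median of these lists (1.1). The lower gene was Tarbp2 (-0.41), which is neither an Argonaute nor a TNRC6 gene, and it lost its call in several alternatives. Tnrc6b (2.18), Tnrc6a (1.64) and Ago2 (1.37) followed Tnrc6c.

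**Figure D3:**
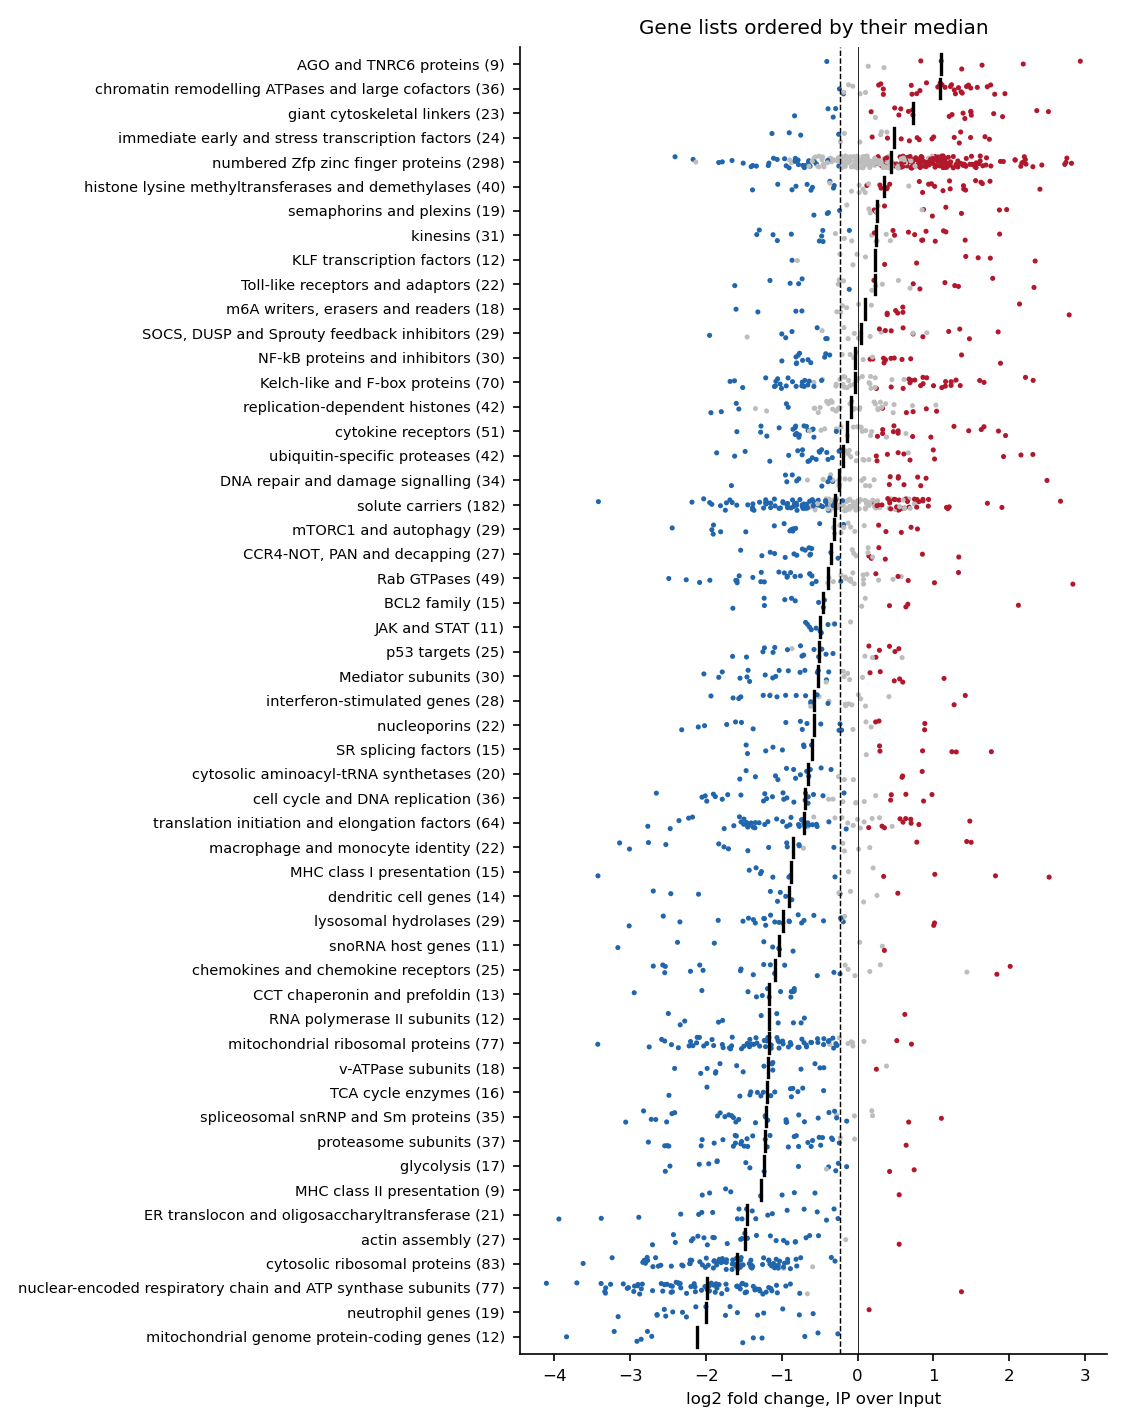
Log2 of the IP to Input fold (x axis) of each gene in lists with at least 9 genes kept, ordered by the list median (thick black mark), with the number of genes in brackets. Red points were higher in the IP, blue points lower and grey points not called. The dashed line is the median of all 13445 genes (-0.23), and the lists run from mitochondrially encoded genes at -2.12 to the Argonaute and TNRC6 list, which includes Tarbp2, at 1.1.

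Transcript length went with the fold change over the whole range. The features were those of 1 transcript per gene, the one with the longest coding sequence, in 11521 nuclear protein-coding genes. Spearman's rank correlation across genes, which are not independent replicates, was 0.42 between spliced length and log2 fold change. Of 758 genes with a transcript under 1 kb 5.67% were higher and 74.8% lower (median -1.48), against 24.7% higher and 44.0% lower over the 11521 (24.7% and 44.1% with the mitochondrial genes, 11533 in all). Of 1332 genes with 6 kb or more 56.7% were higher and 16.3% lower (median 0.44). The medians climbed in each step of 10 equal groups, from -1.33 at a median of 887 bases to 0.48 at 7760 bases.

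The number of GGAC copies had a rank correlation of 0.46 with the fold change, and a rank correlation of 0.78 with the length itself. A copy was present in 99.5% of the transcripts. The 54 transcripts with none had a median of -0.97 with 26 lower and 8 higher, at a median length of 747 bases. By the richest window of 60 coding bases, the median went from -1.04 in 274 genes with no copy over -0.62 with 1, -0.22 with 2 and 0.02 with 3 to 0.15 in 261 genes with 4 or more, while their median spliced length climbed as well, from 1256 to 4115 bases.

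Long internal exons went with higher values also among transcripts of like length. Of 697 genes with an internal exon of 1 kb or more 60.5% were higher and 10% lower (median 0.58), and of the 368 of these with a transcript under 6 kb 49.2% were higher and 13.6% lower (median 0.39). Plcl2 (2487 bases), Tnrc6c (2601 bases), Kmt2d (2952 bases), Plec (3381 bases) and Son (5970 bases) have such exons. Genes were then divided into 10 groups of equal size by spliced length and split within each at the median of a second feature. The part with the longer internal exon had the higher median in 10 of 10 groups (by 0.13 to 0.55), as had the part with the greater GC content (0.30 to 0.54) and with more GGAC per kb (0.19 to 0.42). GC content and GGAC per kb had a rank correlation of 0.62 with each other, and they were not separated here. More exons per kb, a longer 3′ untranslated region and a higher Input level each went with the lower median in 10 of 10 groups. Across all these genes, without regard to length, a longer 3′ untranslated region went with a higher fold change (rank correlation 0.21). The Input level is the denominator of the fold change and was used to keep genes, so its direction can be partly built in. The span of the gene with its introns gave no common direction (3 of 10 groups). Of 276 nuclear protein-coding genes with 1 exon, among them Purb, Ier5 and H2afx, 42.0% were higher and 17.4% lower (median 0.32).

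**Figure D4:**
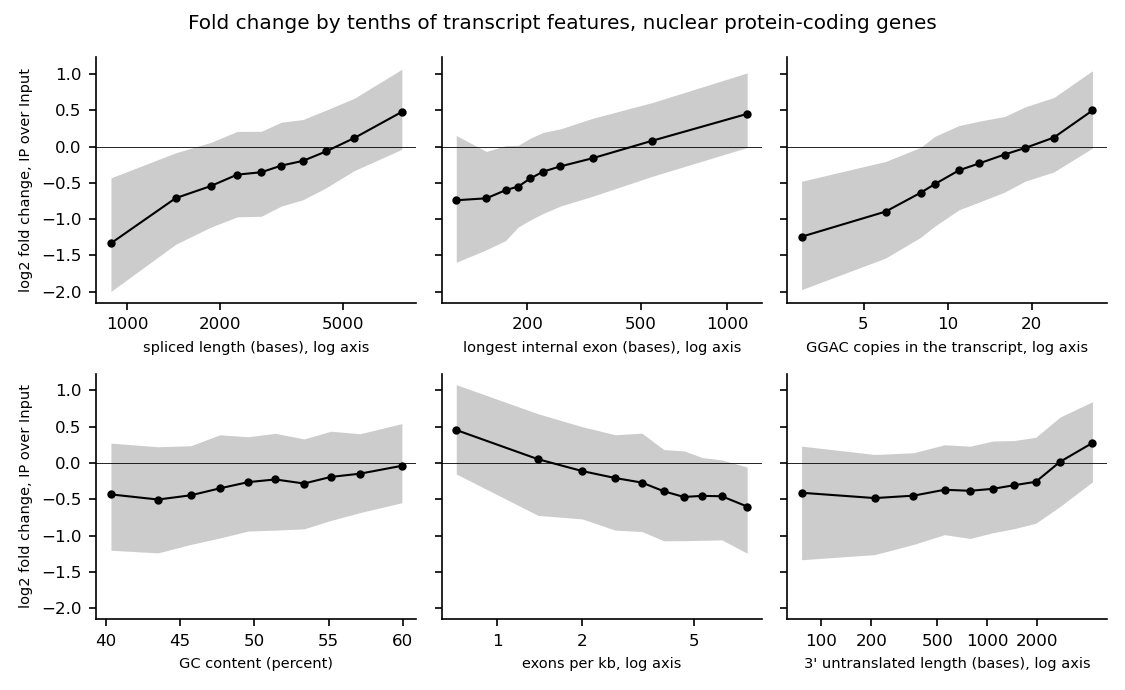
Median log2 of the IP to Input fold (points, y axis) and 25th to 75th percentile (grey band) in 10 equal groups of the nuclear protein-coding genes by 6 transcript features (x axes, at the median of each group). The median goes from -1.33 to 0.48 with spliced length, from -0.74 to 0.45 with the longest internal exon and from -1.24 to 0.50 with the number of GGAC copies.

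The lists were also set against genes of like length. When each value was taken as its difference from the median of genes of the same length group, respiratory chain genes stayed at -1.03 (71 of 77 below), neutrophil genes at -1.11 (17 of 19 below), the ER translocon list at -0.77 (20 of 21) and the tricarboxylic acid cycle at -0.71 (16 of 16). Cytosolic ribosomal proteins went from -1.59 to -0.40 (68 of 83 below). On the other side Zfp genes stood at 0.60 above their groups (242 of 298 above), immediate early factors at 0.85 (21 of 24), Toll-like receptors and adaptors at 0.56 (18 of 22) and chromatin remodelers at 0.65 (26 of 36). Replication-dependent histones, which are short and mostly without introns, moved to 1.0 above (37 of 42). Their median Input level was 2.41 CPM, against 32.2 CPM for genes with a transcript under 1 kb, and 31 were not called. In the shortest length group the part with the lower Input level had a median of -0.92, and the part with the higher level -1.58. What share of the histone value goes with Input level was not tested. Giant linkers came down to 0.25 above (17 of 23). Nucleoporins, with long transcripts, lay at -0.63 (19 of 22 below) and JAK and STAT genes at -0.35 (10 of 11 below). Actin assembly genes went from -1.49 to -0.70 (25 of 27 below), glycolysis from -1.23 to -0.69 (15 of 17) and v-ATPase subunits from -1.18 to -0.69 (14 of 18). Proteasome subunits went from -1.22 to -0.65 (29 of 37 below) and lysosomal hydrolases from -0.99 to -0.59 (23 of 29). The CCT and prefoldin list went from -1.17 to -0.49 (11 of 13). Some other lists came closer still to their length groups. Class II genes went from -1.28 to -0.34 (6 of 9 below) and class I genes from -0.88 to -0.20 (9 of 15 below). Spliceosomal snRNP and Sm genes went from -1.21 to -0.31 (25 of 35 below). Mitochondrial ribosomal proteins went from -1.17 to -0.36 (51 of 77 below), and chemokines and their receptors from -1.10 to -0.42 (16 of 25 below). Dendritic cell genes went from -0.91 to -0.10 (8 of 14 below), macrophage and monocyte genes from -0.85 to -0.27 (12 of 22 below), RNA polymerase II subunits from -1.17 to -0.24 (7 of 12 below) and translation factors from -0.71 to -0.14 (39 of 64 below). SR factors turned from -0.61 to 0.21 and the BCL2 family from -0.45 to 0.30.

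Noncoding genes differed by class. Malat1, the nuclear speckle RNA with the most counts of all genes, had 32701, 30685 and 31734 CPM in the Inputs and 57474, 57122 and 59430 CPM in the IPs (0.87 ± 0.024 SE, adjusted p = 1.80e-10). All 5 nuclear long noncoding RNAs of the list were higher, with Tug1 at 1.95, Kcnq1ot1 at 0.99 and Neat1 at 0.74. Bc1, a short RNA polymerase III transcript, was at 166, 135 and 161 CPM against 4.37, 6.42 and 6.44 CPM (-4.73 ± 0.15 SE, adjusted p = 4.29e-10). Of 11 snoRNA host genes 8 were lower and 1 higher (median -1.04), with Gas5 at -1.24 and Snhg6 at -2.38. Rnu1a1, a U1 gene with near-identical copies, was lower in the main test (-3.38 ± 1.1 SE, adjusted p = 0.0187), from 10.2, 4.19 and 3.02 CPM to 1.51 CPM and 0 in IP replicates 2 and 3, and lost its call in DESeq2, without Input replicate 1 and without the pairs of libraries numbered 2 or 3.

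By annotated type, 40.2% of 241 lincRNAs were higher and 13.7% lower (median 0.44), and 32.1% of 212 antisense genes were higher and 8.02% lower. The greatest share of these classes was in 396 genes of the GENCODE class TEC, which await experimental evidence, with 64.6% higher and 1.52% lower (median 1.03), and in 53 sense intronic genes, with 52.8% higher and 3.77% lower. Of the first class 318 lie within a protein-coding gene on the same strand, where 67.3% were higher, and 62 lie within none, where 53.2% were higher. Gm19721, the highest noncoding gene that shares no exon base (1.37, 1.16 and 1.73 CPM against 11.5, 15.7 and 12.1 CPM), is in this class. The share of reads on no gene was also higher in the IPs, 51.4% against 24.7%, and its part in these intronic and intergenic classes was not tested. Processed pseudogenes went the other way, with 52.3% of 599 lower and 17.4% higher (median -0.97), a class whose reads can belong to the parent genes.

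**Figure D5:**
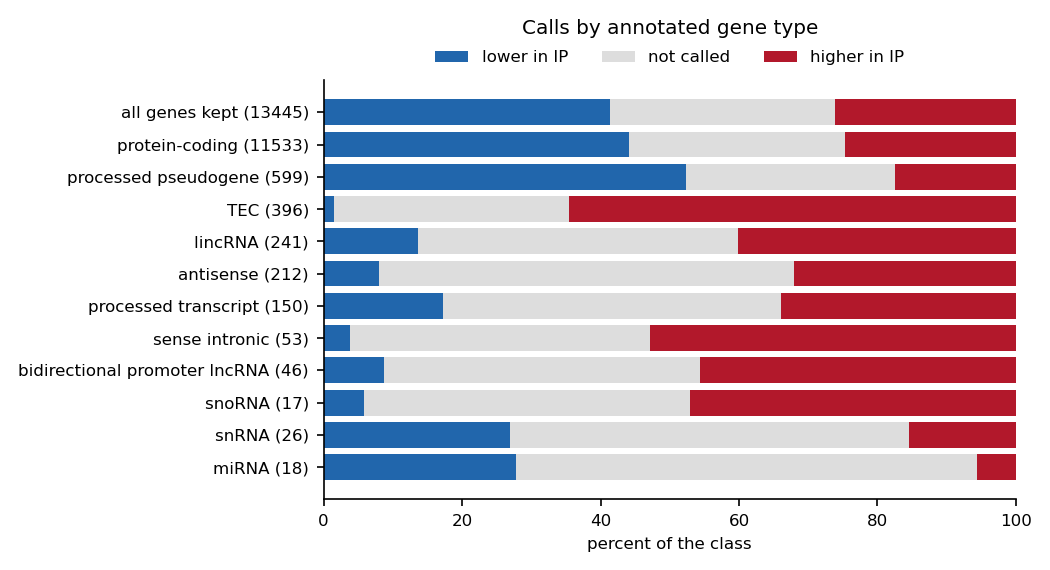
Percent of genes (x axis) that were lower in the IP (blue), not called (grey) and higher in the IP (red) for all 13445 genes kept and for 11 annotated gene types, with the number of genes in brackets. Genes of the class TEC hold 64.6% higher and processed pseudogenes 17.4%, against 26.2% over all genes kept.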

How the data were processed

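Only the irradiated RIP-seq libraries were used (3 YTHDF2 IP, 3 Input), grouped by their titles. The authors trimmed reads with Trimmomatic 0.39, aligned them with HISAT 2.1.0 to mm10 and deposited whole-number HTSeq counts per GENCODE M19 gene, without normalization. The strand option of the counting is not given in the sources used here. Rows of uncounted reads were left out of library sizes (reads on no gene, 24.7% in the Inputs and 51.4% in the IPs).

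Counts were scaled by TMM and compared by edgeR's quasi-likelihood test (4.0.16, R 4.3.3), with Benjamini-Hochberg adjustment over 18650 genes and a threshold of 0.05. CPM are on the TMM scale unless said otherwise. Gene types, coordinates and transcripts came from GENCODE M21 of the same build, which matched 13441 of the 13445 genes. The test found 83.7% of 2-fold and 90.4% of 4-fold changes in simulated counts of 18056 genes, with 3.31% of its calls false. The simulation changed only a small set of genes, up and down alike, and gave Input and IP the same dispersion. These rates need not hold for the real libraries, where most genes were called and the IPs varied more than the Inputs.

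Genes were named by a rule. With an average of 100 counts or more, an adjusted p under 0.05 and no overlap between the groups, they were the 10 protein-coding genes with the largest and the 10 with the lowest fold change and the 3 noncoding genes on each side, all without shared exon bases, and the highest and lowest called gene of each of the 58 lists. Plec, Purb, Ythdf2 and the 5 genes with the highest Input level were added. Other genes named within lists were picked after their values were seen. The genes, lists and tests were chosen with earlier results of these data known. Some genes are not reported here.

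Input and IP libraries of the same number may share a lysate, and the correlations of their deviations from the group means were near 0 (r = -0.026, 0.0047 and 0.00095). Blocking on that number was 1 alternative, and the others were DESeq2 1.42.0, other scalings and filters, thinned libraries and libraries left out in turn.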

Additional observations from a re-analysis of the deposited data

Results flagged for a closer look

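Reads that fell on no annotated gene, which no comparison uses, made up 51.4% of the uniquely aligned reads in the IPs (mean of 3 libraries) against 24.7% in the Inputs, a signal outside the main measurement. Without IP replicate 1, the library with the highest share, 3649 genes were higher in the IP and 5799 lower. Of the 5205 genes under the Input limit, 2473 were higher in the IP and 131 lower, also outside the counts of the report. The split is partly set by the count filter: 2197 of these genes had 10 counts in every IP but not in every Input, 1369 of them in no Input. Among the 2106 with 10 counts in every Input, 525 were higher and 131 lower. Protein-coding genes made up 2271 of them (52.1% higher, 1.37% lower), and processed pseudogenes 895 (43.0% higher, 7.71% lower).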

How the results depend on the processing

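The counts of 3520 higher and 5550 lower genes fell to 1619 and 2959 when at least a 2-fold difference was also asked for, and all other settings stayed within 1.5 times of them. With DESeq2 they were 3808 and 5429, with library size alone 4123 and 4818, with no count filter 2915 and 6226. With each library or lysate left out in turn they ranged from 2993 to 3649 and from 4852 to 5799. In the fit with the replicate block, 3382 genes were higher (3362 of them also without the block) and 5605 lower (5406 also without it). Of the values for named genes under the alternatives, 2762 kept direction and call, 47 lost the call and 0 turned direction. Ncoa3, Tarbp2, Rnu1a1, Padi4, Zbtb46, Snhg20, Pecam1, Atp6v0a2, Nup35 and Phlda3 were among those concerned, and the cause was not tested. Of the 58 lists, 5 had a median whose sign turned with the scaling. Counts cannot tell molecules from copies of one molecule, the 3 lysates per group are the only replicates, and levels under 3 counts (0.0743 to 0.104 CPM) could not be read.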

Other observations

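Outside the lists, 90 groups of at least 10 genes with a shared symbol stem were counted, and those named here were picked after their values were seen. Over all genes kept 26.2% were higher and 41.3% lower. Zbtb genes, transcription factors with a BTB domain and zinc fingers, were higher in 26 of 36 and lower in 1 (median log2 fold change 0.86). Ataxin-named genes (Atxn) were higher in 6 of 11 and lower in 2 (median 0.83), and phosphodiesterases (Pde) were higher in 8 of 16 and lower in 4 (median 0.30). Prdm genes were higher in 5 of 10 and lower in none.

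On the low side, Timm genes of the mitochondrial import machinery were lower in 13 of 14 (median -1.30) and Trappc genes of a vesicle tethering complex in 12 of 14 (median -1.34). Coq genes of coenzyme Q synthesis were lower in 9 of 11 (median -1.12) and annexins (Anxa) in 8 of 10 (median -1.08). C-type lectin genes (Clec) were lower in 12 of 18 and higher in 2 (median -1.27), and subunits of Integrator (Ints) were lower in 11 of 15 (median -0.77). Of the 90 groups, 20 had a median above 0 and 70 below, beside a median of -0.23 over all genes kept.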
